A study of Glycine max with 108 samples.

Results

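The 9 soybean genes described here encode the enzymes that lead from flavanones to flavonols and to anthocyanins, and their transcripts were followed by RNA-seq under 5 abiotic stresses and combinations of them, in both leaf and flower tissue. They were chosen by ID, not by level, but with earlier results of these data known. The 9 genes are among the 57147 features listed in each of 2 tables of FPKM, 1 per tissue (fragments counted per length of transcript and per size of the library). The names belong to that choice, because the tables hold IDs alone. They are flavanone 3-hydroxylase (F3H), with a major gene, GLYMA_02G048400, and a minor gene, GLYMA_02G048600, named so here by their levels; T, the flavonoid 3'-hydroxylase gene GLYMA_06G202300; W1, the flavonoid 3',5'-hydroxylase gene GLYMA_13G072100; W3 and W4, the dihydroflavonol 4-reductase genes DFR1 (GLYMA_14G072700) and DFR2 (GLYMA_17G252200); anthocyanidin synthase (ANS), with a major gene, GLYMA_01G214600, and a minor gene, GLYMA_11G027700; and FLS1, the flavonol synthase gene GLYMA_13G082300.

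In this pathway F3H makes dihydroflavonols from flavanones. T and W1 add hydroxyl groups to the B ring and so set which pigment is made; in soybean the T locus is known for pubescence and seed coat colour, and W1, W3 and W4 for flower colour. Flavonol synthase and dihydroflavonol reductase then compete for the dihydroflavonols. The first gives flavonols, colourless compounds that absorb ultraviolet light, and the second gives leucoanthocyanidins, which ANS turns into the coloured anthocyanidins.

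All plants were of cultivar Magellan, grew from seeds coated with Bradyrhizobium japonicum, and were 31 days old at harvest; leaves or flowers of 5 to 7 plants were pooled for each sample. The single stresses were salinity (15 mM NaCl, given once at the start), acidity (pH 4), water deficit (30% of the transpirable water, where the others received 100%), low phosphate (reduced by 90%) and cadmium (300 µM CdCl2). All of these but cadmium were also combined in every pair, every triple and all 4 together, cadmium was added to the 4-stress combination to make a 5-stress combination, and untreated plants were the control. The pH and the phosphate reduction are stated for the single stresses alone. This makes 17 stress treatments and 1 control per tissue, each with 3 samples by the labels. In 4 groups, namely leaf control and, in flower, the 4-stress combination, acidity and water deficit, 1 of the 3 columns equalled the mean of the other 2 in 100% of the features and was left out, so that 53 leaf and 51 flower libraries remained and those groups have n = 2. Every leaf comparison with control therefore rests on the same 2 control libraries, and every flower comparison on the same 3.

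FPKM summed to between 617269 and 713376 per leaf library and between 611857 and 680482 per flower library. The number of reads is unknown; steps among low values give estimated relative depths of 0.869 to 1.229 in leaf and 0.897 to 1.204 in flower around the median library, with 83.95% of the leaf values and 88.86% of the flower values used lying within 0.1 read of a whole number. The 4 IDs listed for APETALA1, a floral identity gene, averaged 10.9 to 61.7 FPKM in flowers and never passed 0.490 FPKM in a leaf library, and the 2 IDs listed for the Rubisco small subunit averaged 833 and 1552 FPKM in flowers, against 15690 and 13270 FPKM in leaves. Replicate 1 of the flower 5-stress group stood apart from the other 2 for several of the genes, and results that rest on it are given with and without it. Replicate 1 of flower acidity with water deficit had the fewest features above 0 of the flower libraries (38673, against up to 43702). Its mean correlation with its own group was also the lowest (0.9312, flower median 0.9597). This library was left out only together with replicate 1 of every group.

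In flowers all 9 genes were present in every library. The major F3H gene had the highest level, 272 ± 39.5 FPKM (mean ± SD over the 51 flower libraries, treatments pooled), followed by FLS1 at 131 ± 22.9, the major ANS gene at 60.7 ± 11.6, W4 at 36.0 ± 10.1 and the minor ANS gene at 21.6 ± 4.09. T and W1 stood side by side, at 13.2 ± 2.92 and 13.01 ± 3.04 FPKM. The minor F3H gene, at 6.04 ± 2.51, and W3, at 2.37 ± 1.17 FPKM, were the lowest.

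In leaves the major F3H gene and FLS1 kept high levels. The minor F3H gene, W1, W3, W4 and the minor ANS gene had low values or were listed at 0. The major F3H gene averaged 138 ± 53.6 FPKM and FLS1 81.9 ± 29.1 FPKM over the 53 leaf libraries, the major ANS gene 14.7 ± 11.3 and T 8.45 ± 3.64. The minor ANS gene averaged 1.02 FPKM, just over the mean of 1 FPKM that was set for testing. W4 averaged 0.820 FPKM, W1 0.593 FPKM, W3 was listed at 0 in 49 of 53 leaf libraries and never passed 0.102 FPKM, and the minor F3H gene was under 0.001 FPKM in 47 of 53. A value of 0 in these tables need not mean low expression, since a Rubisco small subunit ID that averaged 13270 FPKM in leaves was also listed at 0 in some leaf libraries. W1, W3, W4 and the minor F3H gene were under the minimum and were not tested in the main leaf fit. So 5 of the 9 genes were tested among 28678 leaf features and 9 of 9 among 33792 flower features. The balance between branches can be read within each library, and the tissues are set side by side without a test because their tables were deposited separately. The ratio of W4 to FLS1 had a median of 0.266 in flower libraries and 0.00996 in leaf libraries, that of W1 to T a median of 1.05 in flower and 0.0741 in leaf, and that of the major ANS gene to FLS1 a median of 0.485 in flower and 0.146 in leaf. In bulk tissue such as this, fewer cells of a type and less RNA per cell cannot be told apart.

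**Figure D1:**
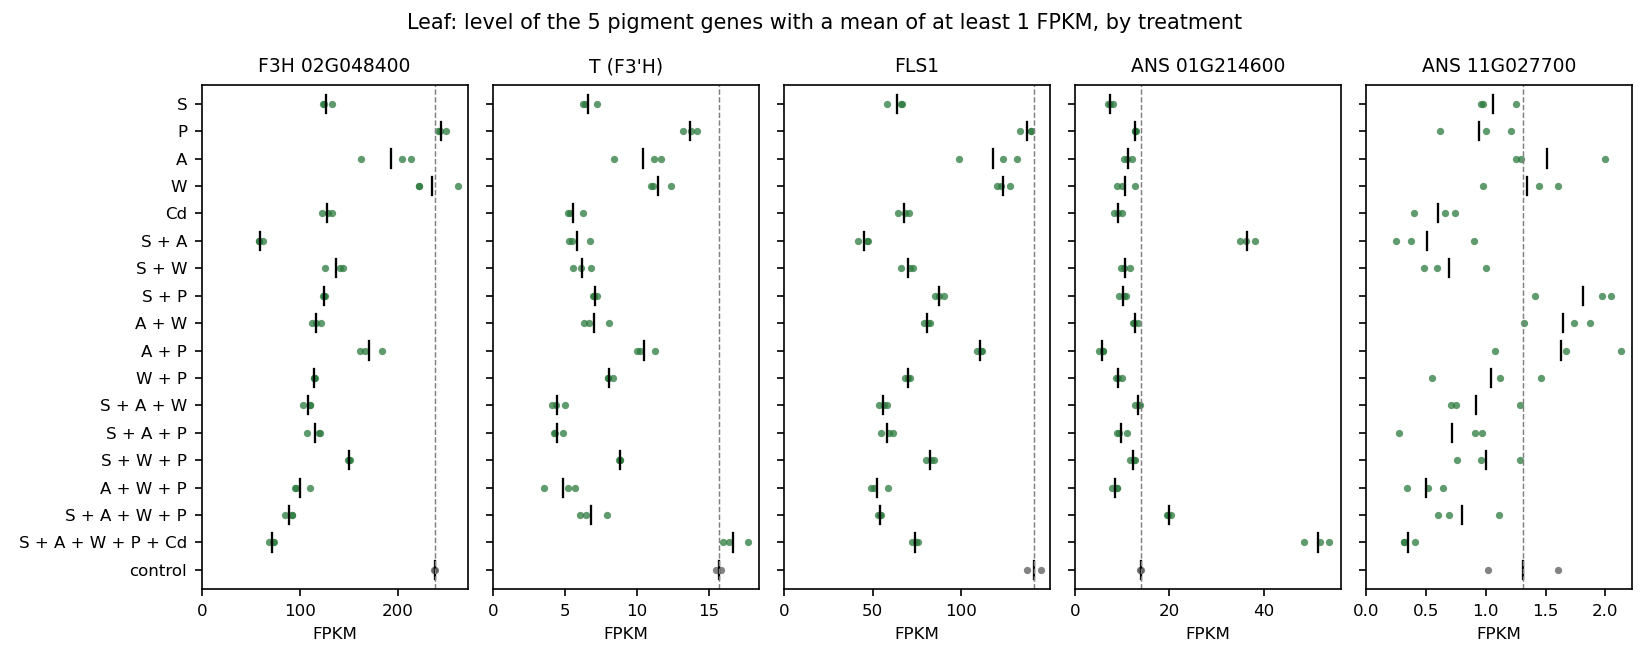
Level in FPKM (horizontal axes, linear, from 0) of the 5 genes tested in leaf, with 1 row per treatment and the control at the bottom; points are libraries, black bars group means and the dashed line the control mean. S is salinity, A acidity, W water deficit, P low phosphate and Cd cadmium; the major F3H gene and FLS1 lie left of the control in most rows, while the major ANS gene stands far to the right in S + A and in the 5-stress row.

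Changes below are differences of log2(FPKM + 1), treatment minus control unless stated, with their standard error (SE) and a p adjusted by the Benjamini-Hochberg method over all features tested, from 1 limma fit per tissue; a gene was called at an adjusted p under 0.05. The scale understates the change of low genes. In leaves the dominant pattern was lower transcript of the first step, of T and of flavonol synthase. The major F3H gene, T and FLS1 were each called lower than control in 15 of the 17 treatments and higher in none; over the same 17 comparisons 25.2% of all gene tests were called lower and 20.2% higher, from 3.82% of features in either direction under low phosphate to 70.1% under salinity with acidity. The major ANS gene was called lower in 10 treatments and higher in 3, and the minor ANS gene lower in 4.

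Among single stresses in leaf, salinity and cadmium lowered the early genes most. The major F3H gene had 124, 133 and 125 FPKM under salinity and 129, 133 and 123 FPKM under cadmium, against 238 and 237 FPKM in the control. Both sets lay well under the control libraries, and the falls were 0.90 (SE 0.0797, adjusted p = 2.72e-12) and 0.89 (adjusted p = 2.89e-12) on the log2 scale by limma. FLS1, which draws dihydroflavonols into flavonols, had 65.9, 58.3 and 66.8 FPKM under salinity and 68.2, 70.8 and 64.3 FPKM under cadmium, against 137 and 145 FPKM in the control. Again no stressed library reached the control range, with changes of -1.14 (SE 0.0769, limma adjusted p = 1.08e-15) for salinity and -1.05 (adjusted p = 8.14e-15) for cadmium. T changed by -1.13 under salinity (SE 0.122, limma adjusted p = 4.55e-10) and by -1.34 under cadmium (adjusted p = 3.47e-12), and the major ANS gene by -0.82 and -0.57. Salinity called 4 of the 5 tested genes (41.5% of all features called) and cadmium 5 of 5 (47.2% of all features).

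The other single stresses did less. Acidity called 4 of 5 genes lower (12.2% of all features called), with the major F3H gene at 204, 213 and 162 FPKM against 238 and 237 FPKM in the control, a change of -0.31 (SE 0.0797, limma adjusted p = 0.00692). The third acidity library was the lowest. Each of the 4 acidity calls was lost under at least 2 alternatives; those of the major F3H and major ANS genes were lost without replicate 1, 2 or 3 of every group, under median-ratio scaling and when only both groups were fitted. Under water deficit 2 of 5 were called (24.1% of all features): T, at 10.99, 12.4 and 11.1 FPKM against 15.5 and 15.9 FPKM in the control (change -0.42, limma adjusted p = 0.0101), and the major ANS gene (change -0.39, adjusted p = 0.00269). The T call was lost when libraries were scaled to their median ratio, which moved the median feature by 0.108, and both were lost without replicate 1 of every group and when the fit held only these 2 groups. Low phosphate alone called 0 of 5 genes by limma at the adjusted threshold, and 0 of 5 also had an unadjusted p under 0.05 (3.82% of all features called); the major F3H gene had 243, 249 and 241 FPKM there, against 238 and 237 FPKM in the control.

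Salinity together with acidity lowered 4 of the tested leaf genes and raised the fifth, the major ANS gene. There the major F3H gene dropped to 58.3, 63.0 and 58.2 FPKM, against 238 and 237 FPKM in the control, the lowest of the 18 leaf groups and 0.252 of the control mean (change -1.97, SE 0.0797, limma adjusted p = 3.77e-24). FLS1 was at 47.5, 41.6 and 47.0 FPKM in salinity with acidity against 137 and 145 FPKM in the control, also its lowest group (change -1.62, adjusted p = 1e-21), and T at 5.27, 5.53 and 6.78 FPKM against 15.5 and 15.9 FPKM (change -1.29, adjusted p = 2.16e-12). In the same libraries the major ANS gene, whose product makes the coloured anthocyanidins, was at 38.0, 34.9 and 36.3 FPKM, against 13.8 and 14.0 FPKM in the control. Every library of the pair exceeded both controls, 2.61 times the control mean (change 1.32, SE 0.0959, limma adjusted p = 8.35e-16). The minor ANS gene moved the other way, with 0.251, 0.904 and 0.371 FPKM in the pair against 1.02 and 1.60 FPKM in the control (change -0.63, adjusted p = 0.00652). All 5 tested genes were thus called in the pair, where 70.1% of all features were.

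Neither single stress showed this rise of ANS. The major ANS gene was at 6.88, 7.49 and 8.04 FPKM under salinity alone and at 11.04, 11.98 and 10.4 FPKM under acidity alone, all under the 2 control libraries. The pair exceeded the sum of the 2 single changes by 2.44 (SE 0.129, limma adjusted p = 2.4e-19). The major F3H gene lay below that sum (difference -0.77, SE 0.107, limma adjusted p = 8.59e-08). With T (0.40, adjusted p = 0.0395), which lost its call under 6 of 9 alternatives, 3 of 5 genes departed from the sum (51.9% of all features called).

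The rise of the major ANS gene was smaller or absent when 1 more stress joined the pair. It had 13.6, 13.8 and 12.8 FPKM with water deficit added and 10.9, 9.40 and 8.92 FPKM with low phosphate added, against 13.8 and 14.0 FPKM in the control. With both added, in the 4-stress combination, it had 19.7, 20.3 and 19.4 FPKM and again lay over every control library (change 0.48, SE 0.0959, limma adjusted p = 4.24e-05). Its lowest group was acidity with low phosphate, at 5.07, 6.01 and 5.88 FPKM, against 13.8 and 14.0 FPKM in the control (change -1.17, limma adjusted p = 1.68e-13). The pair of acidity and low phosphate lay below the sum of its single changes (difference -0.75, SE 0.129, adjusted p = 1.35e-05).

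**Figure D2:**
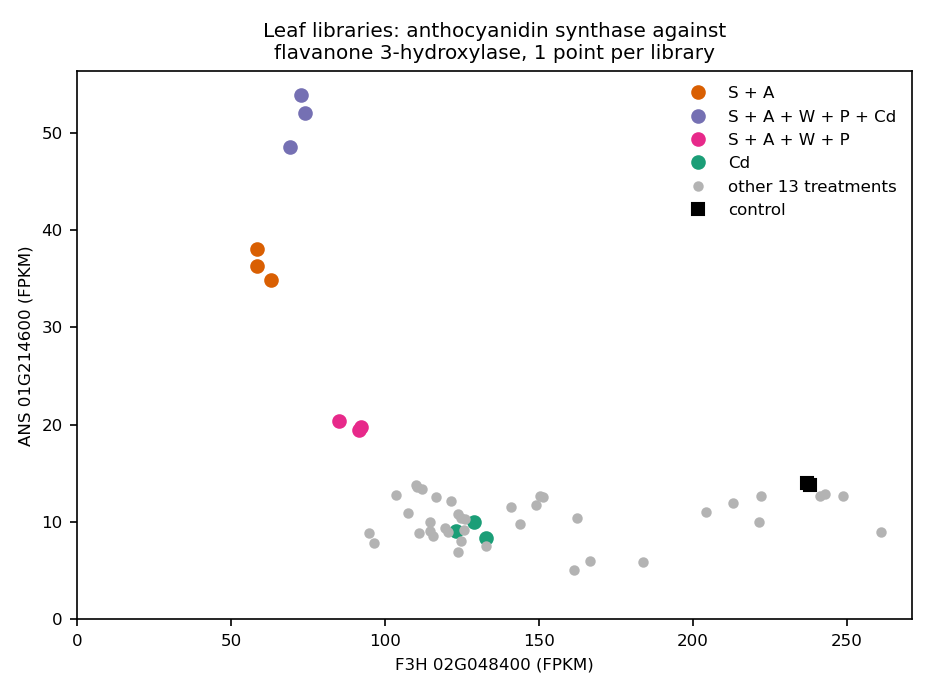
Major ANS gene (vertical axis, FPKM) against major F3H gene (horizontal axis, FPKM), 1 point per leaf library, both axes linear from 0. The 3 libraries of salinity with acidity (S + A) and the 3 of the 5-stress combination (S + A + W + P + Cd) join the highest ANS levels, 34.9 to 53.9 FPKM, with F3H levels of 58.2 to 73.8 FPKM; the 2 control libraries lie near 14 FPKM of ANS and 237 FPKM of F3H.

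Adding cadmium to the 4 other stresses raised several leaf genes that cadmium alone lowered. The major ANS gene reached 53.9, 52.0 and 48.5 FPKM in the 5-stress combination, against 19.7, 20.3 and 19.4 FPKM in the 4-stress combination (change 1.33, SE 0.0858, limma adjusted p = 1.12e-16). The 5-stress libraries were the highest of all leaf libraries for this gene, 3.69 times the control mean. T had 16.4, 15.99 and 17.8 FPKM in the 5-stress combination and 6.49, 6.09 and 7.92 FPKM in the 4-stress combination (change 1.18, SE 0.109, adjusted p = 4.17e-12), and so lay above the control values of 15.5 and 15.9 FPKM without being called against them (change 0.08). The 5-stress group was the only stress treatment with T over the control range. FLS1 had 75.4, 72.0 and 74.8 FPKM, against 53.3, 54.2 and 54.9 FPKM (change 0.45, adjusted p = 7.85e-07), and the major F3H gene had 72.6, 73.8 and 69.1 FPKM, against 92.1, 84.9 and 91.6 FPKM (change -0.31, adjusted p = 0.000319). In all, 4 of 5 genes were called for added cadmium (51.5% of all features called).

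The effect of cadmium on top of the 4 stresses was also set against its effect alone. The difference was 2.53 for T (SE 0.163, limma adjusted p = 7.83e-17), 1.90 for the major ANS gene (SE 0.129, adjusted p = 3.41e-16), 1.49 for FLS1 (SE 0.103, adjusted p = 6.39e-16) and 0.57 for the major F3H gene (SE 0.107, adjusted p = 1.71e-05). These 4 of 5 calls stand beside 55.9% of all features called.

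The genes too low for the main leaf tests had values in the same treatments. W4, the reductase that opens the anthocyanin branch, had 0.0643, 0.0456 and 0.139 FPKM in the 5-stress combination and 0.346, 0.431 and 0.355 FPKM under salinity with acidity, against 1.71 and 1.23 FPKM in the control. All 3 libraries lay under both controls in each of these groups, as W4 did in 11 of the 17 leaf treatments. This separation was not itself tested, and its share over all features is not given. In the alternative fit with no minimum on low values, W4 was called lower than control in 9 of the 17 leaf treatments and higher in 0. There the minor F3H gene was called higher in 1 treatment and lower in 0, and W3 was never called. The share of all features called in that fit is not given either. W1 had 0.119, 0.349 and 0.119 FPKM in the 5-stress combination, against 0.658 and 0.802 FPKM in the control. It lay under both controls in 7 of the 17 leaf treatments and over both in 2, a separation again given without its share over all features. In the fit with no minimum W1 was called lower in 3 treatments and higher in 0, so most of these separations were not calls. The minor F3H gene exceeded 0.1 FPKM in leaf under 1 treatment only, salinity with low phosphate, at 0.326, 0.343 and 0.174 FPKM, and both control libraries were under 0.001 FPKM. Of its 53 leaf values, 42 lay above 0 but under 0.001 FPKM. How reads were divided between related genes is not given in the sources used here. The values of the minor F3H gene are therefore uncertain in both tissues, and so are its flower calls and its correlations given below. The division of reads is equally unknown between the 2 ANS genes and between W3 and W4, and their values carry that limit in both tissues. For these 4 genes, 0 leaf values lay above 0 but under 0.001 FPKM. The rise of the major ANS gene under salinity with acidity thus stood beside lower levels of the major F3H gene, FLS1, T and W4 in the same libraries.

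Across the complete factorial of the 4 stresses, each stress was present in 8 of 16 treatments, and its main effect is the mean difference between treatments with and without it. In leaf, salinity changed 5 of 5 genes (70.7% of all features called): the major F3H gene by -0.59 (SE 0.0265, limma adjusted p = 2.04e-21), FLS1 by -0.64, T by -0.58 and the minor ANS gene by -0.21, but the major ANS gene by 0.35 (adjusted p = 1.4e-12). Acidity changed 4 of 5 (61.8% of all features called) with the same signs, -0.53, -0.45 and -0.46 for the major F3H gene, FLS1 and T and 0.23 for the major ANS gene. Water deficit changed 3 of 5 (50.0% of all features called), namely the major F3H gene by -0.22, FLS1 by -0.31 and T by -0.28. Low phosphate changed 3 of 5 (32.8% of all features called), the major ANS gene by -0.29, and the major F3H gene and FLS1 by -0.07 each, calls that were lost without replicate 1 or 2 and under median-ratio scaling.

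The interaction of salinity and acidity, for the major ANS gene, was 1.06 (SE 0.0621, limma adjusted p = 4.36e-17), the difference of the salinity effect with and without acidity. Over libraries with both stresses this gene had a median of 16.6 FPKM (8.92 to 38.0, n = 12), against 10.3 FPKM with salinity without acidity (6.88 to 12.6, n = 12), 9.65 FPKM with acidity without salinity (5.07 to 13.4, n = 12) and 12.6 FPKM with neither (8.58 to 14.0, n = 11). The ranges overlapped, with both triples that hold this pair at 8.92 to 13.8 FPKM. Salinity by water deficit was positive for the major F3H gene (0.85, adjusted p = 1.76e-15), T (0.75) and FLS1 (0.75), so the change with water deficit was more positive where salinity was present. For the major F3H gene the median was 118 FPKM with both (84.9 to 151, n = 12), 122 FPKM with salinity without water deficit (58.2 to 133, n = 12), 115 FPKM with water deficit without salinity (94.7 to 261, n = 12) and 213 FPKM with neither (161 to 249, n = 11). Of 30 interaction tests in leaf, 16 were called, 12 positive and 4 negative, beside 34.0% of all feature tests. Salinity by low phosphate called 5 of 5 genes (30.8% of all features). Salinity by acidity called 3 of 5 (53.8%), salinity by water deficit 3 (38.1%) and water deficit by low phosphate 3 (38.9%). Acidity by low phosphate called 2 (36.5%) and acidity by water deficit 0 (6.07%).

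In flowers the genes of the pigment branch were called mostly higher, and FLS1 and T mostly lower. Against control, 53 of 153 tests of the 9 genes were called, 32 higher and 21 lower, beside 9.53% of all feature tests called over the same 17 comparisons (5.85% higher and 3.68% lower, and from 1.87% of features in either direction under salinity with low phosphate to 30.2% under cadmium). W1 was called higher in 10 treatments, the minor ANS gene in 7 and the major ANS gene in 5, with no call lower for these 3 genes. FLS1 was called lower in 7 treatments and the major F3H gene in 2, with no call higher, and T was called lower in 10 and higher in 1. W4 and the minor F3H gene were each called higher in 4 treatments and lower in 1, and W3 higher in 1. Of the 53 calls, 13 held under every alternative; without replicate 2 of every group there were 19 calls and without replicate 3 there were 25, in fits where the groups with n = 2 keep 1 library.

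**Figure D3:**
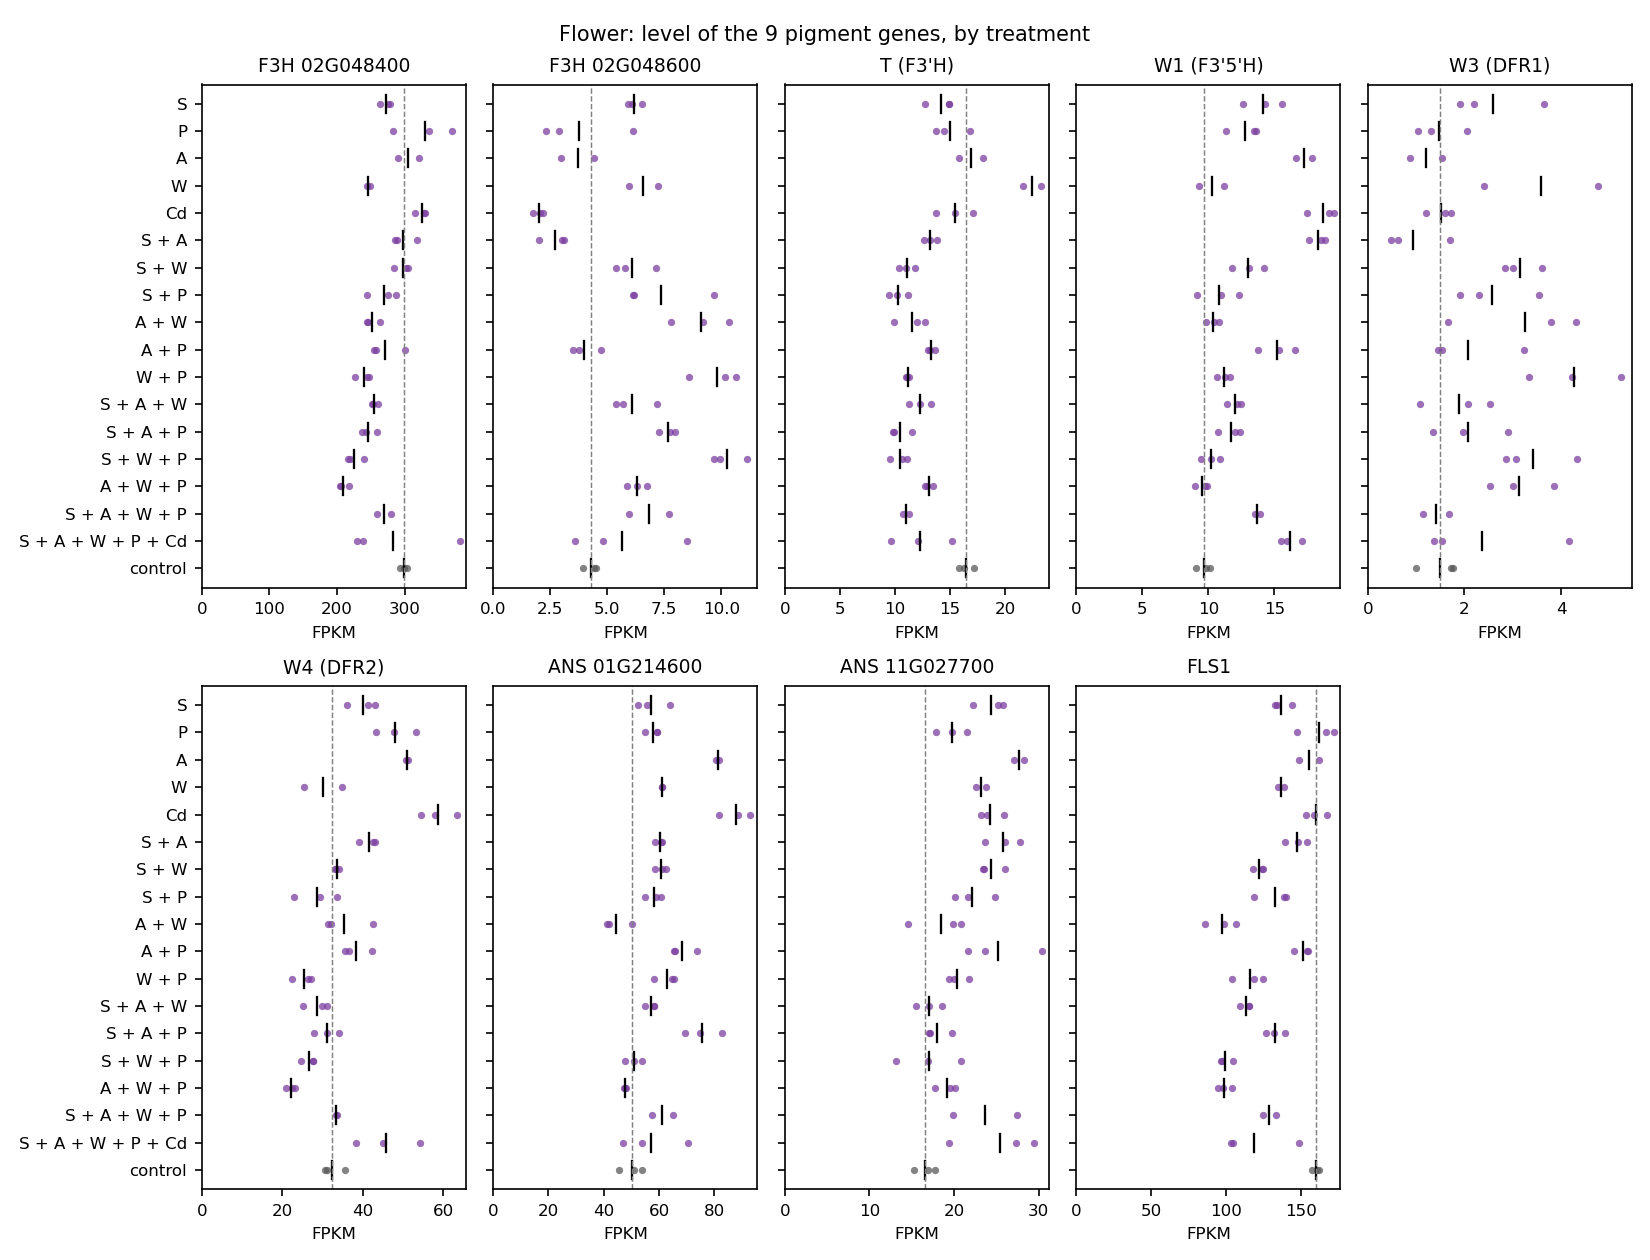
Level in FPKM (horizontal axes, linear, from 0) of the 9 genes in flower libraries, by treatment with the control at the bottom; points are libraries, black bars group means and the dashed line the control mean. S is salinity, A acidity, W water deficit, P low phosphate and Cd cadmium; W1, W4 and the major ANS gene lie farthest right of control under Cd, where W1 reached 17.5 to 19.5 FPKM against 9.03 to 10.1 FPKM in the control.

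Cadmium alone raised W1, W4 and both ANS genes in flowers, lowered the minor F3H gene, and left the major F3H gene, T, W3 and FLS1 uncalled. W1, the enzyme that sets the purple type of flower pigment, had 19.5, 19.1 and 17.5 FPKM under cadmium, against 10.1, 9.84 and 9.03 FPKM in the control (change 0.88, SE 0.0884, limma adjusted p = 1.81e-09). W4 had 58.0, 54.6 and 63.5 FPKM under cadmium, against 31.0, 30.5 and 35.5 FPKM in the control (change 0.84, SE 0.124, adjusted p = 3.04e-06). The major ANS gene had 81.7, 88.8 and 93.0 FPKM under cadmium, against 45.6, 50.8 and 53.9 FPKM in the control (change 0.80, SE 0.0941, adjusted p = 4.93e-08). For all 3 genes the cadmium and control libraries did not overlap, and these 3 calls held under every alternative. The minor ANS gene was also higher (change 0.52, limma adjusted p = 0.00397, a call lost without replicate 2). The minor F3H gene fell to 2.17, 2.06 and 1.73 FPKM under cadmium, against 4.48, 4.44 and 3.94 FPKM in the control (change -0.82, adjusted p = 0.00209, a call lost without replicate 3). W3 had 1.72, 1.20 and 1.60 FPKM under cadmium, against 0.999, 1.72 and 1.77 FPKM in the control (change 0.02, limma adjusted p = 0.979). FLS1 was at 158, 153 and 167 FPKM under cadmium, against 161, 157 and 162 FPKM in the control, and its groups overlapped. In all 5 of 9 genes were called under cadmium, where 30.2% of all features were.

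Acidity alone raised the same steps in flowers, in 2 libraries. W1 had 16.7 and 17.9 FPKM under acidity, against 10.1, 9.84 and 9.03 FPKM in the control (change 0.78, SE 0.0988, limma adjusted p = 9.89e-07). The major ANS gene had 81.7 and 80.7 FPKM under acidity, against 45.6, 50.8 and 53.9 FPKM in the control (change 0.69, adjusted p = 1.99e-05), and W4 had 50.6 and 51.3 FPKM, against 31.0, 30.5 and 35.5 FPKM (change 0.64, adjusted p = 0.00221). None of these acidity libraries overlapped the control, and 4 of 9 genes were called with the minor ANS gene (6.69% of all features called). The W1 call held under every alternative, while that of the major ANS gene was lost without replicate 2 and those of W4 and the minor ANS gene without replicate 2 or 3. W1 was also at 18.5, 18.9 and 17.6 FPKM under salinity with acidity (change 0.86, adjusted p = 4.58e-09), the combination in which leaf ANS was high; in flowers the major ANS gene had 61.2, 58.7 and 60.7 FPKM there, against 45.6, 50.8 and 53.9 FPKM in the control, and was not called (change 0.26, adjusted p = 0.0691).

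Where water deficit was combined with other stresses, flavonol synthase was lower in flowers. FLS1 had 85.6, 98.4 and 106 FPKM under acidity with water deficit, against 161, 157 and 162 FPKM in the control (change -0.72, SE 0.091, limma adjusted p = 4.55e-07). It had 104, 97.7 and 94.4 FPKM under acidity, water deficit and low phosphate (change -0.69, adjusted p = 1.11e-06) and 96.4, 97.4 and 104 FPKM under salinity, water deficit and low phosphate (change -0.68, adjusted p = 2.17e-06). No library of these 3 groups reached the control range, and the 3 calls held under every alternative. The minor F3H gene moved the other way, with 9.69, 11.1 and 9.96 FPKM in the last of these groups, against 4.48, 4.44 and 3.94 FPKM in the control (change 1.09, SE 0.203, adjusted p = 0.000316).

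Over the factorial, water deficit changed 8 of 9 genes in flowers (20.9% of all features called), 6 lower and 2 higher. FLS1 averaged 112 ± 14.6 FPKM in libraries with water deficit and 147 ± 13.5 FPKM in those without (SD, n = 22 and 23; main effect -0.37, SE 0.0276, limma adjusted p = 1.42e-12). W4 averaged 29.2 ± 5.30 FPKM with water deficit and 38.3 ± 7.98 FPKM without (main effect -0.38, adjusted p = 3.71e-08). W1, the major F3H gene, the major ANS gene and T were lower by smaller amounts, with main effects of -0.24, -0.20, -0.18 and -0.11. The call of T was lost without replicate 2 or 3 of every group, and the other 7 held under every alternative. Water deficit alone went the other way for T, which had 21.7 and 23.3 FPKM there, its highest flower group, against 17.2, 16.3 and 15.8 FPKM in the control (change 0.43, SE 0.115, limma adjusted p = 0.0141). These ranges did not overlap, and this call too was lost without replicate 2 or 3. The genes that were higher were the ones with the lowest flower levels. The minor F3H gene averaged 7.72 ± 1.91 FPKM with water deficit and 5.01 ± 2.02 FPKM without (main effect 0.58, adjusted p = 3.64e-08), and W3 averaged 3.06 ± 1.14 and 1.83 ± 0.855 FPKM with and without it (main effect 0.52, adjusted p = 0.000222).

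The other stresses had fewer calls over the flower factorial. Salinity changed 1 of 9 genes (3.98% of all features called), T, by -0.32 (SE 0.0315, limma adjusted p = 4.9e-08). Low phosphate changed 5 of 9 (4.23% of all features called), with T at -0.27 (adjusted p = 6.19e-07) as the one call that held under every alternative. Acidity changed 4 of 9 (12.7% of all features called), and W1, at 0.20 (adjusted p = 7.02e-05), was likewise the one that held.

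In flowers the effect of acidity on the major ANS gene depended on water deficit. This gene averaged 51.8 ± 7.53 FPKM with both stresses (n = 11), 70.4 ± 8.85 FPKM with acidity without water deficit (n = 11), 58.7 ± 5.56 FPKM with water deficit without acidity (n = 11) and 55.9 ± 4.96 FPKM with neither (SD, n = 12). The interaction was -0.51 (SE 0.0574, limma adjusted p = 7.32e-08). It was the 1 of 12 interaction calls in flowers, of 54 tests, that held under every alternative, beside 2.68% of all feature tests called.

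In flowers every called departure of a pair from the sum of its single changes lay below that sum, which is not the same as a smaller change. Of 54 tests 13 were called, 13 lower and 0 higher, beside 3.57% lower and 2.52% higher over all features. All these sums share the same control libraries, and each single-stress group enters several of them, so the shared direction is not 13 separate observations. Of the 13 calls, 3 held under every alternative. Acidity with water deficit held 5 of them, led by the major ANS gene (-1.15, limma adjusted p = 4.89e-07), T (-0.95, adjusted p = 5.51e-05) and W1 (-0.76, adjusted p = 0.000153), which held under every alternative. The single acidity and water deficit groups behind these sums have n = 2.

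Cadmium added to the 4 stresses called 0 of 9 flower genes by limma, while 2 of 9 had an unadjusted p under 0.05 (0.503% of all features called). W4 had 54.1, 45.1 and 38.4 FPKM in the 5-stress combination, against 33.2 and 33.7 FPKM in the 4-stress combination (change 0.43, limma adjusted p = 0.163), with no overlap. In the 5-stress group replicate 1 held the highest level for both the major F3H gene (382, against 239 and 230 FPKM in replicates 2 and 3) and FLS1 (148, against 105 and 103 FPKM). Without it there were 68 calls against control in flowers in place of 53, FLS1 was called lower for added cadmium (-0.31, limma adjusted p = 0.0495), the major F3H gene was called lower in the 5-stress combination against control (-0.35, adjusted p = 0.00194), and the call of W4 against control was lost (0.36, adjusted p = 0.0509; 0.48, adjusted p = 0.00587 with it).

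**Figure D4:**
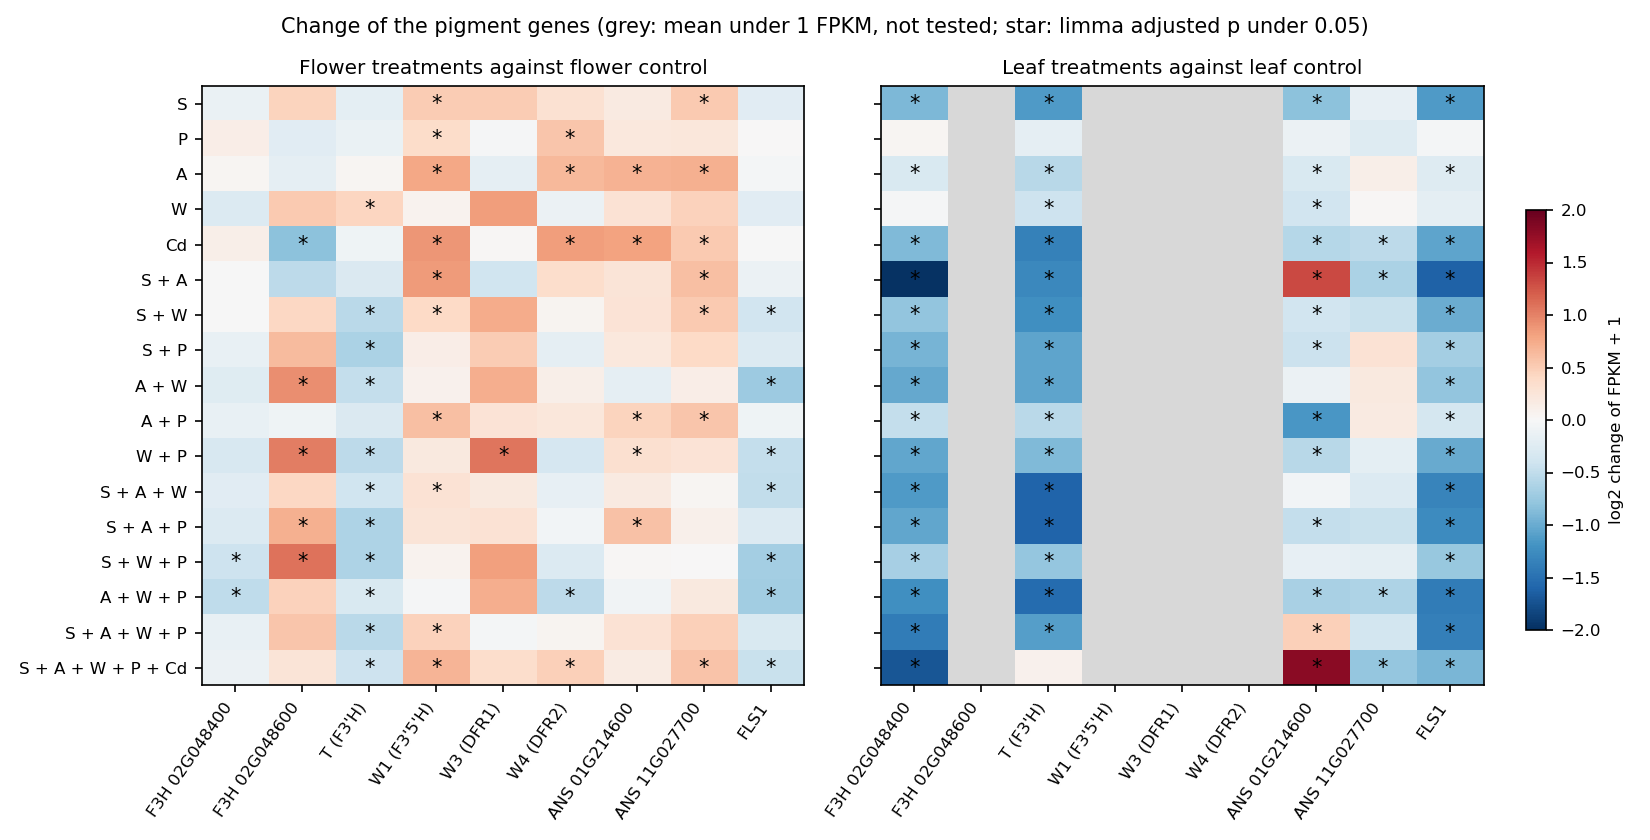
Change of each gene (columns) in each treatment (rows) against the control of the same tissue, as the log2 change of FPKM + 1 on a colour scale cut at -2 and 2, flowers left and leaves right; stars mark a limma adjusted p under 0.05 and grey marks genes not tested. S is salinity, A acidity, W water deficit, P low phosphate and Cd cadmium; of the leaf tests 59 were called lower and 3 higher, and of the flower tests 21 lower and 32 higher.

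The main effects of the 4 stresses differed between the tissues for most genes tested in both. Of 20 differences between the flower and the leaf effect, 13 were called, beside 40.4% of all feature tests. For salinity the difference was 0.59 for the major F3H gene (flower effect -0.004, leaf effect -0.59, limma adjusted p = 7.7e-22) and 0.57 for FLS1 (flower effect -0.07, leaf effect -0.64, adjusted p = 1.22e-21). Both genes were called lower with salinity in leaves, and neither was called in flowers. For water deficit neither gene differed between tissues by the test (difference 0.02, SE 0.0382, adjusted p = 0.791 for the major F3H gene, and -0.06, SE 0.0372, adjusted p = 0.209 for FLS1). T and the major ANS gene were called for all 4 stresses. For salinity, acidity, water deficit and low phosphate the differences were 0.26, 0.37, 0.17 and -0.23 for T and -0.31, -0.15, -0.20 and 0.33 for the major ANS gene.

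**Figure D5:**
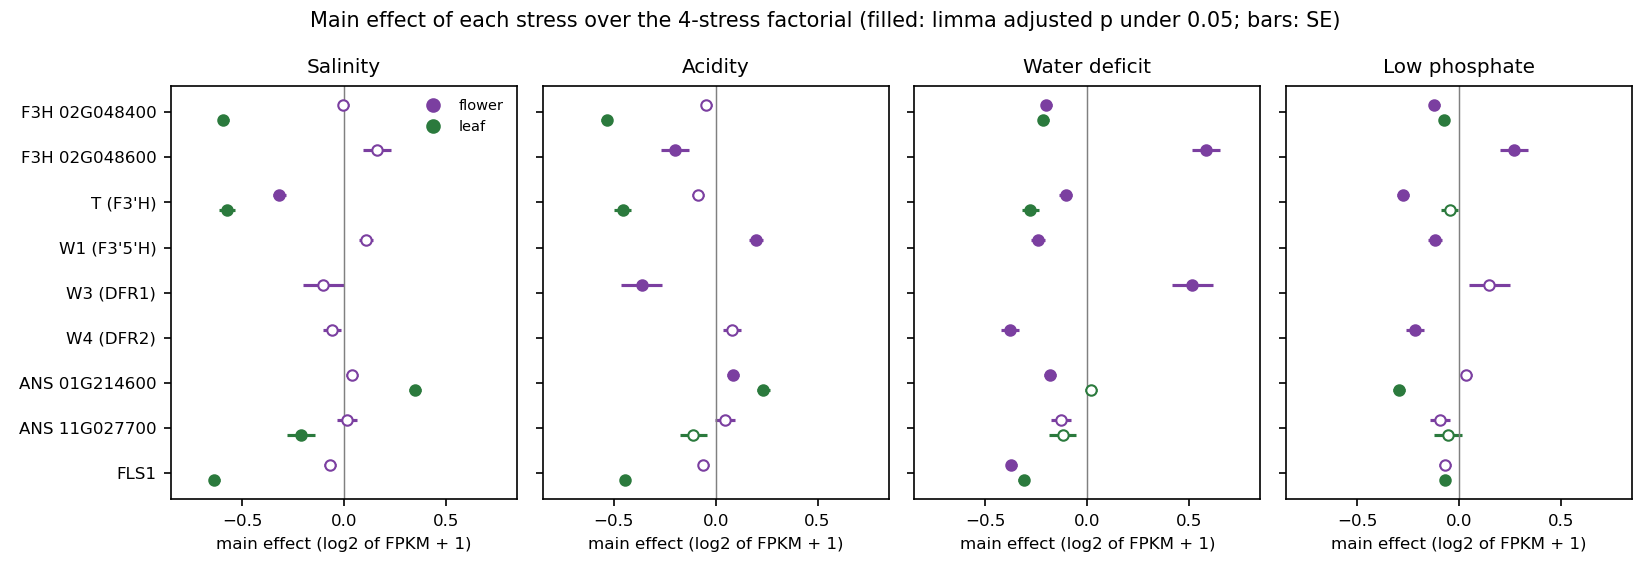
Main effect of each stress over the 4-stress factorial (horizontal axes, log2 of FPKM + 1) for each gene, flowers in purple above leaves in green; filled points have a limma adjusted p under 0.05 and bars are SE. For salinity the major F3H gene and FLS1 lie near 0 in flowers and at -0.59 and -0.64 in leaves, and for water deficit both tissues lie left of 0.

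Beside the 9 genes, 42 other IDs listed for the phenylpropanoid and flavonoid pathway were followed, of which 28 were tested in leaf. Most of the 42 are listed for steps before F3H. The rest are listed for isoflavone synthase, anthocyanidin reductase and regulators of pigment genes, and the counts over 28 IDs do not separate them. The step of each comes from general annotation knowledge and not from the tables. In leaves under salinity with acidity 17 of 28 were called higher and 9 lower, with a median change of 0.72 beside 0.06 over all features tested, of which 37.8% were called higher and 32.3% lower, and in the 5-stress combination 18 were higher and 7 lower, with a median of 0.74 beside 0.10 (34.6% of all features higher and 25.7% lower). For chalcone synthase, the entry enzyme of flavonoid synthesis, 4 of 6 tested IDs were higher and 1 lower under salinity with acidity, and for chalcone isomerase 5 of 7 were higher and 2 lower, to be read against the same shares of all features. Under salinity alone 2 of 28 were higher and 17 lower (median -0.55 beside -0.07, with 17.4% of all features higher and 24.1% lower), and under cadmium alone 2 were higher and 16 lower (median -0.47 beside -0.11, with 18% of all features higher and 29.2% lower).

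Over the 18 leaf group means the major F3H gene and FLS1 varied together (Pearson r = 0.883, rank 796 of 28677 features), and the major ANS gene varied against F3H (r = -0.561). In flowers the major F3H gene had r = 0.845 with W4 and 0.802 with FLS1 over 18 group means, but -0.782 with the minor F3H gene and -0.694 with W3. The features most like the major F3H gene were GLYMA_18G130700 in leaf (r = 0.978) and GLYMA_14G170600 in flower (r = 0.963). The control is 1 of these 18 points, and the genes compared share the libraries behind each mean. The values are descriptions of 18 means.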

How the data were processed

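RNA-seq libraries of leaves and flowers were analysed from 2 tables of FPKM per feature, deposited by the authors, 1 per tissue. HISAT2 2.2.1 is named in the submitters' processing notes; the quantifier, genome build, annotation and strandedness are not given in the sources used here. Replicates are pools of 5 to 7 plants per biological repeat, by the labels. Columns equal to the mean of the other 2 of their group (4 in all) were left out. Features averaging 1 FPKM or more across the libraries of a tissue were kept, log2(FPKM + 1) was fitted with limma 3.58.1 in R 4.3.3 (trend and robust moderation, 1 mean per group), and p-values were adjusted by the Benjamini-Hochberg method over all features tested, with calls at 0.05. The difference between tissues was taken between effects within each table, in 1 model. The fit was tested on simulated data with normal noise, in which 200 features changed by 1 on the log2 scale. Over 15 simulated comparisons 66.0% to 99.0% of these were recovered, and up to 9.09% of the calls were of unchanged features. The leaf data differ from that setting, with up to 70.7% of features called, so the simulation does not give the error of the leaf calls. Tables were handled with pandas 2.3.3 and numpy 2.4.6 and drawn with matplotlib 3.10.9, under Python 3.11.15. The 9 genes, the 42 pathway IDs and the tests were chosen with earlier results of these data known. All 9 genes are named; the rule that would name single pathway genes was not used because 0 IDs of the tables matched the RefSeq gene table. Alternatives were a pseudocount of 0.1, no minimum, median-ratio scaling, no trend or robust moderation, the averaged columns kept, a replicate block, fits of the compared groups only, and leaving out each replicate. The number of reads is unknown, so no counting intervals are given.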

Additional observations from a re-analysis of the deposited data

Results flagged for a closer look

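The results listed here differ between tissues by the test of the difference itself, the main effect in flowers minus that in leaves (log2 of FPKM + 1, limma, Benjamini-Hochberg adjusted p over 27337 features tested in both). For salinity the difference was 0.59 for the major F3H gene (adjusted p = 7.7e-22), 0.26 for T (1.68e-05), -0.31 for the major ANS gene (2.3e-09), 0.22 for the minor ANS gene (0.0214) and 0.57 for FLS1 (1.22e-21). For acidity it was 0.49 for the major F3H gene (adjusted p = 1.12e-17), 0.37 for T (7.73e-09), -0.15 for the major ANS gene (0.00232) and 0.38 for FLS1 (5.82e-14). For water deficit it was 0.17 for T (adjusted p = 0.00578) and -0.20 for the major ANS gene (9.26e-05). For low phosphate it was -0.23 for T (adjusted p = 0.000896) and 0.33 for the major ANS gene (1.98e-08). Of these 13 calls, 9 held under every alternative; the calls of the minor ANS gene for salinity, of T and the major ANS gene for water deficit and of T for low phosphate did not.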

How the results depend on the processing

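No call changed direction under any alternative. With no minimum on low values, leaf interactions had 26 calls, against 16, and differences between tissues 20, against 13, as more of the 9 genes were tested in leaf. Cadmium added to the 4 stresses in flowers had 1 call, against 0, in 3 cases: W4 higher with the averaged columns kept, and FLS1 lower both without replicate 1 and without replicate 1 of the 5-stress group, the last an alternative chosen after seeing the data, which also gave 68 calls against control in flower, against 53. Leaving out each numbered replicate of all groups in turn gave 54 to 58 calls against control in leaf and 19 to 54 in flower, 12 to 14 and 10 to 13 for main effects, 13 to 15 and 1 to 9 for interactions, 4 to 4 and 0 to 1 for added cadmium, and 10 to 12 for the differences between tissues. Calls in leaf against control held under every alternative in 54 of 62 cases and in flower in 13 of 53. Same-numbered samples showed no shared deviation (leaf correlations with control lay between -0.09 and 0.064, flower ones between -0.096 and 0.047). This cannot show whether they were grown or harvested together, and the samples were not treated as paired. With a replicate block the calls against control were 62 in leaf and 52 in flower, and main effects 15 and 17. Interactions then had 17 and 10 calls, added cadmium 5 and 0, and differences between tissues 13. Median-ratio scaling moved the median leaf feature by up to 0.269 (acidity, water deficit and low phosphate) and gave 54 calls against control in leaf and 56 in flower. The 2 leaf control libraries limit every leaf comparison with control.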
